A study of Mus musculus with 6 samples.

Results

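The S100 genes encode small calcium-binding proteins, and 10 of them, *S100a1*, *S100a4*, *S100a6*, *S100a8*, *S100a9*, *S100a10*, *S100a11*, *S100a13*, *S100a14* and *S100a16*, were examined by name in RNA-seq counts of the mouse mammary carcinoma line 4T-1, among 40205 genes in the count table. The cells were stable lines made by retroviral transduction with EZH2-Y641-F, a mutant of the catalytic domain (Y641-F, labelled as Y641 mutated) or with the MSCV vector (Control, labelled as WT). EZH2 is the methyltransferase subunit of the Polycomb complex PRC2, and Y641-F raises its trimethylation of histone H3 at lysine 27. Each group had 3 libraries, described as different batches of stable cells. The sources do not say whether the batches were transduced separately, so p-values measure the spread between batches of cells. The methods name puromycin for all lines in one place, and in another puromycin for Control and hygromycin for Y641-F, so the drug and the mutant cannot be told apart if the second account holds.

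An S100 protein has a pair of EF-hand loops and works as a dimer. Calcium opens a hydrophobic face that binds target proteins such as annexins, cytoskeletal proteins and enzymes, and some S100 proteins are also released from cells and act on receptors such as RAGE and TLR4. S100A10 is the exception that cannot bind calcium and is held permanently in the open form. In mammary carcinoma the family is best known for *S100a4* (metastasin), which drives metastasis in mouse models.

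Total counts were 32509268 to 36429035 per library, and values are given as CPM (counts scaled to the library total) after TMM scaling, which evens out library size and composition. The test covered 21043 genes, those that reached 0.1 CPM in 3 or more libraries. *Ezh2* had 115 ± 10.7 CPM in Y641-F cells and 110 ± 10.6 CPM in Control cells (SD, n = 3 each), with an adjusted p of 0.73 from edgeR's quasi-likelihood test, and the construct's reads may not map to the mouse gene. All 10 epithelial markers were detected and tested, of which 2 were higher in Y641-F cells, *Cldn7* (log2 fold change 1.14) and *Cldn3* (0.60), 1 was lower, *Krt19* (-1.13), and 7 did not pass the test. This is 30% called, against 31.6% of all genes tested. *Epcam*, a defining marker, had 293 CPM in Y641-F cells and 318 CPM in Control cells, and the part of the moving markers in the S100 results was not tested. In bulk RNA, a change in the number of cells that express a gene and a change in RNA per cell cannot be told apart.

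Of the 10 members, 9 passed the filter, 4 were higher in Y641-F cells, 0 were lower and 5 did not pass the test at an adjusted p under 0.05 (edgeR, Benjamini-Hochberg over all genes tested). *S100a16* and *S100a14* had the largest rises past the test, of 3.31-fold and 2.07-fold, and *S100a10* and *S100a4*, which are far more abundant, rose 1.44-fold and 1.35-fold. Over all genes tested, 31.6% passed, 15.6% as higher and 16% as lower. The median log2 fold change of the 9 members was 0.44, against -0.01 over all genes tested. Without Control replicate 1 or without Control replicate 2, 2 members in place of 4 were called higher, *S100a14* and *S100a16*, while 2555 and 2270 genes were called higher over all genes tested, against 3277 with all libraries. At an unadjusted p under 0.05, 6 members were higher and 0 lower, against 19.9% higher over all genes tested. By DESeq2 5 members were higher and 0 lower, against 18.8% higher of the 18595 genes to which it gave an adjusted p. *S100a8* got no adjusted p from DESeq2, so these are 5 of 8 members. By limma-voom 4 were higher and 0 lower, against 15.6% higher. The methods name an unadjusted p up to 0.05 and a log2 fold change of at least 1 in either direction. These thresholds were passed by 3 members, all higher (*S100a8*, *S100a14* and *S100a16*). Of all genes tested, 3.4% passed them as higher. The CPM of the 3 Y641-F libraries lay above those of all 3 Control libraries for 7 of the 9 members. Over all genes tested, the groups did not overlap for 44.5%, and the Y641-F libraries were the higher ones for 21.2%. *S100a8*, at a few counts per library, met the filter mainly through its Y641-F libraries, where it is higher. Without it the numbers are 2 of 8 members past those thresholds, 6 of 8 with no overlap and 5 of 8 at an unadjusted p under 0.05. The median log2 fold change without *S100a8* is lower, between the values of *S100a6* (0.24) and *S100a4* (0.44).

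**Figure D1:**
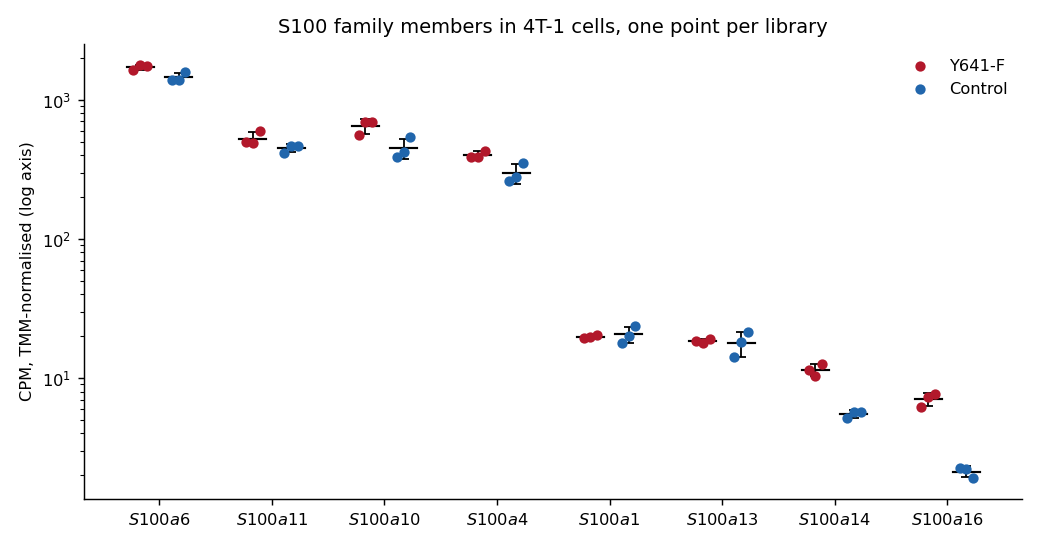
Normalised level of 8 S100 members (CPM on a log axis), with 1 point per library, Y641-F libraries in red and Control libraries in blue, and bars for the mean and SD of 3 libraries. *S100a6* lies between 1382 and 1776 CPM over the 6 libraries, while *S100a16* lies between 6.18 and 7.71 CPM in Y641-F and between 1.91 and 2.26 CPM in Control. *S100a8* and *S100a9*, with a 0 in at least 1 library, are left out.

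All members lie on chromosome 3 in 2 groups. On GRCm39 with the GENCODE vM39 annotation, *S100a13* (positions 90416091 to 90431912, plus strand), *S100a1* (90418340 to 90421848, minus strand), *S100a14* (90434082 to 90436144, plus), *S100a16* (90444172 to 90450462, plus), *S100a4* (90511074 to 90513354, plus), *S100a6* (90520140 to 90535843, plus), *S100a8* (90567118 to 90578128, plus) and *S100a9* (90599931 to 90603071, minus) follow each other. *S100a11* (93414382 to 93435293, plus) and *S100a10* (93462213 to 93474510, plus) lie beyond the filaggrin and trichohyalin genes. RefSeq promoter windows, from 250 bases before to 50 bases after an annotated start (build GRCm38.p6), matched 8 of the 10 members, all but *S100a10* and *S100a14*. *S100a16* has 2 windows and is shown for its large rise, and *S100a4* is shown as the best known metastasis gene of the family. Capitals mark matches, searched on both strands. The motifs were the TATA box, spelled TATAAA, and the site of AP-1 factors, spelled TGANTCA. The GC box of SP1 and KLF factors was spelled GGGCGG. The site of TEAD factors was spelled GGAATG, and the core of the hypoxia response element was spelled ACGTG.

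*S100a16*, first window, chr3:90537004-90537303, plus strand: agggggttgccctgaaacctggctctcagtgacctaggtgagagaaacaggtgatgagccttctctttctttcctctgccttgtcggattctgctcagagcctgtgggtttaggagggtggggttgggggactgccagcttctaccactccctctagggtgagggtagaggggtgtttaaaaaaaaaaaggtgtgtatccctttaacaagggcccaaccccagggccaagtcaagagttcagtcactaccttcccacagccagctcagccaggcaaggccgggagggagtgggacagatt
*S100a16*, second window, chr3:90540896-90541195, plus strand: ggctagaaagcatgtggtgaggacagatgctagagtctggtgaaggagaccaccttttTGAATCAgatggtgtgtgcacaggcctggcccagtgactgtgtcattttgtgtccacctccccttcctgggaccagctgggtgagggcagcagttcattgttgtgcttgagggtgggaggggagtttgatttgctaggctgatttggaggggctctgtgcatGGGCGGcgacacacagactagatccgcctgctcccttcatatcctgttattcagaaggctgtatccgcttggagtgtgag
*S100a4*, chr3:90603520-90603819, plus strand: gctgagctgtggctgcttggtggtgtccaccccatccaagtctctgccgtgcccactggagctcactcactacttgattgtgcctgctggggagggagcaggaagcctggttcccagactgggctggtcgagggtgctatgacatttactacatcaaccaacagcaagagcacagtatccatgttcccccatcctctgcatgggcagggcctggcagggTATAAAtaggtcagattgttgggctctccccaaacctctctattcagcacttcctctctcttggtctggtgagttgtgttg

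The second *S100a16* window held an AP-1 match, which begins 192 bases before the start, and a GC box that begins 30 bases before it, and the first window held none of the 5 motifs. The *S100a4* window held a TATA box that begins 31 bases before the start. Among the 8 members with a window, TATAAA was found in 3 (*S100a4*, *S100a8* and *S100a9*), against 13.6% of all 32851 windows in the table. The *S100a8* match begins 30 bases before the start, and the *S100a9* match begins at the annotated start itself. TGANTCA was found in 2 (*S100a11* and *S100a16*) against 7.81%, GGGCGG in 3 (*S100a9*, *S100a11* and *S100a16*) against 35.7%, ACGTG in 2 (*S100a6* and *S100a11*) against 19.6%, and GGAATG in 0 against 14.7%. A member counts once if any of its windows holds a match, while the percentages are shares of single windows. *S100a16*, with 2 windows, therefore had more room for a match. A match is a description of the letters and not a measured binding site.

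*S100a14* and *S100a16* are neighbours on the plus strand and encode epithelial S100 proteins, which bind each other in human cells. *S100a16* had 192, 238 and 264 counts in the Y641-F libraries, against 81, 80 and 63 in the Control libraries. Its mean was 7.05 ± 0.791 CPM in Y641-F cells and 2.13 ± 0.192 CPM in Control cells (SD, n = 3 each). The groups were well separated, with a log2 fold change of 1.73 (SE 0.174, edgeR adjusted p = 2.04e-05). *S100a14* had 354, 339 and 430 counts in the Y641-F libraries, against 184, 205 and 190 in the Control libraries. Its mean was 11.4 ± 1.11 CPM in Y641-F cells and 5.52 ± 0.344 CPM in Control cells, a log2 fold change of 1.05 (SE 0.134, edgeR adjusted p = 0.000113). Every Y641-F library was above every Control library for both genes, and both stayed past the test when any 1 library was left out.

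*S100a10*, the partner of annexin A2 in a cell-surface complex that gathers plasminogen, had 17433, 22868 and 23613 counts in the Y641-F libraries, against 13985, 15276 and 17721 in the Control libraries. The normalised levels were 561, 698 and 690 CPM in Y641-F cells, against 390, 424 and 537 CPM in Control cells. The groups did not overlap, but the highest Control library came close to the lowest Y641-F library. The log2 fold change was 0.53 (SE 0.134, edgeR adjusted p = 0.00979). It no longer passed with Control replicate 1 left out (adjusted p = 0.051) or without Control replicate 2 (adjusted p = 0.0548), and over the 13 alternatives the adjusted p from edgeR, DESeq2 or limma-voom ranged between 1.02e-05 and 0.0548.

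*S100a4*, which binds non-muscle myosin IIA, had 12004, 12719 and 14747 counts in the Y641-F libraries, against 9310, 10036 and 11667 in the Control libraries. The levels were 386, 388 and 431 CPM in Y641-F cells, against 259, 279 and 353 CPM in Control cells. Here too the groups did not overlap, and Control replicate 3 was the nearest to Y641-F cells. The change was 0.44 on the log2 scale (SE 0.12, edgeR adjusted p = 0.0154). The call was lost without Control replicate 1 (adjusted p = 0.0737), Control replicate 2 (0.0841) or Y641-F replicate 3 (0.0607), with a range of the edgeR, DESeq2 or limma-voom adjusted p between 0.000321 and 0.0841 over the 13 alternatives. Exons of *S100a4* share 302 of 908 bases with *Gm42674*, a gene on the same strand in GENCODE vM39. *Gm42674* was not matched by symbol to the count table, and the annotation used in counting is not stated. Whether the overlap affected the *S100a4* counts cannot be told.

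*S100a6* (calcyclin) and *S100a11* (calgizzarin, a partner of annexin A1) were in every Y641-F library above every Control library, without passing the test. *S100a6* had 1637, 1776 and 1739 CPM in Y641-F cells, against 1382, 1396 and 1580 CPM in Control cells. Its fold was 1.18, with a 95% interval of 1.01 to 1.39 before adjustment and an adjusted p of 0.106 from edgeR, and DESeq2's Wald test called it (adjusted p = 0.0228). Over its 13 alternatives the adjusted p, by these tools and limma-voom, was 0.0228 to 0.331. *S100a11* had 497, 492 and 592 CPM in Y641-F cells, against 417, 465 and 469 CPM in Control cells, a fold of 1.17 (95% interval 0.997 to 1.37, adjusted p = 0.13 from edgeR). It passed the test without Y641-F replicate 2 (edgeR adjusted p = 0.0492) and had an adjusted p of up to 0.397 over the alternatives.

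**Figure D2:**
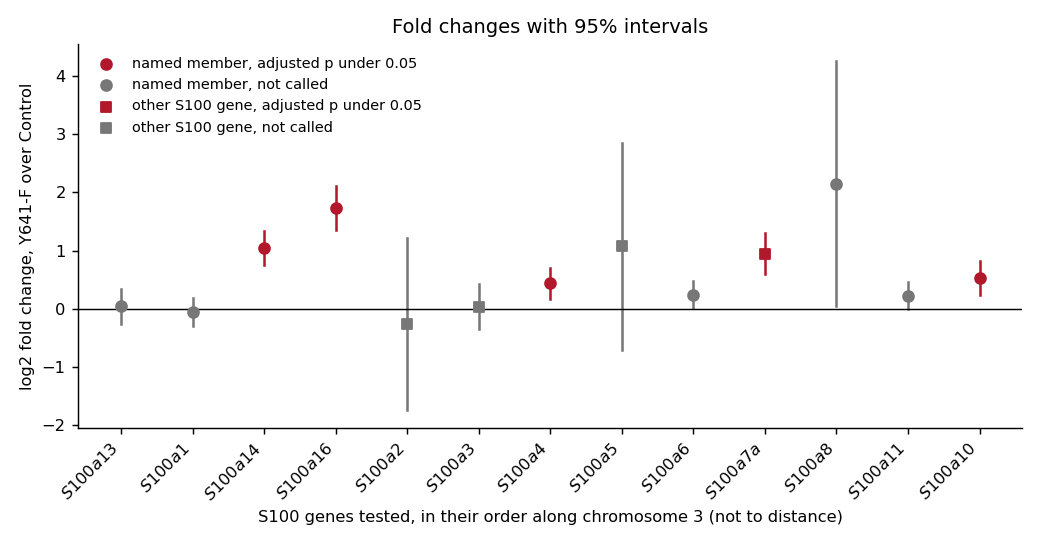
Log2 fold change of Y641-F over Control (points) with its 95% interval (lines) for the 13 S100 genes tested, in their order along chromosome 3, with circles for the named members, squares for other S100 genes and red for an adjusted p under 0.05 from edgeR. The highest called values belong to the neighbours *S100a14* (1.05) and *S100a16* (1.73), while *S100a13* and *S100a1*, next to them, lie near 0.

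*S100a1*, which binds ryanodine receptors and is best known from heart muscle, and *S100a13*, which takes part in the release of FGF1 and interleukin 1 alpha, did not pass the test. *S100a1* had 604, 647 and 698 counts in the Y641-F libraries, against 647, 728 and 782 in the Control libraries. Its fold was 0.963 (95% interval 0.812 to 1.14, adjusted p = 0.76 from edgeR). *S100a13* had 575, 588 and 651 counts in the Y641-F libraries, against 509, 655 and 709 in the Control libraries, a fold of 1.03 (95% interval 0.838 to 1.27, adjusted p = 0.846 from edgeR). The Y641-F values of both genes lay within the spread of the Control values, apart from *S100a1* counts in Y641-F replicate 1, which lay below it before scaling.

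The pair is annotated on opposite strands, and 2563 of the 2895 exon bases of *S100a1* are also exon bases of *S100a13*. How the counting treated strand is not stated, so reads of these genes may not be separated, and neither value is certain for its gene. Their RefSeq starts point away from each other and are 105 bases apart, and the 204 bases common to both promoter windows are shown because the pair did not pass the test beside *S100a14* and *S100a16*, which rose. Capitals mark its 7 CG dinucleotides, and the whole windows hold 11 (*S100a1*) and 14 (*S100a13*), against a median of 7 over all 300-base windows. These counts lie at percentiles 58.6 and 63.7 of all windows, not far above the middle. Whether CG content bears on the changes was not tested.

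Shared stretch of the *S100a1* and *S100a13* windows, GRCm38.p6, chr3:90514281-90514484, plus strand: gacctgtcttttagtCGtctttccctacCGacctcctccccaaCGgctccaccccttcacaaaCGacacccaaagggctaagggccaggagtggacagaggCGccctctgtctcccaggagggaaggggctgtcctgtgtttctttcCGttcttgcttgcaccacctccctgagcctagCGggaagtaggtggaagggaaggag

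*S100a8* and *S100a9* encode the subunits of calprotectin, which neutrophils and other myeloid cells make in large amounts. *S100a9* had 0 counts in all 6 libraries, which allows up to 3 counts per library, or 0.0832 to 0.0965 CPM, by counting error alone. *S100a8* had 5, 17 and 4 counts in the Y641-F libraries, against 0, 4 and 2 in the Control libraries. The groups did not overlap in CPM, but Y641-F replicate 3 and Control replicate 2 were nearly level, at 0.117 and 0.111 CPM. *S100a8* reached 0.1 CPM in all 3 Y641-F libraries and in 1 Control library, so it entered the test mainly through Y641-F cells. The change was 2.14 on the log2 scale (SE 0.965, edgeR adjusted p = 0.116), and 1.22 without Y641-F replicate 2. Of 17 neutrophil and other myeloid markers 10 were tested, of which 0 were higher and 1 was lower by edgeR (0 and 3 at an unadjusted p under 0.05, 0 and 2 by DESeq2). By edgeR 10% of those tested were called, against 31.6% of all genes tested. The summed level of the markers tested was 15.6 to 19.3 CPM in Y641-F libraries and 18.3 to 33.9 CPM in Control libraries. *Ly6g*, a defining neutrophil marker, had 0 counts in every Y641-F library and at most 1 count in a Control library. *Cd68*, the most abundant of these markers over the 6 libraries, had 5.39 CPM in Y641-F cells and 10.4 CPM in Control cells. Control replicate 2 had the highest sum, and *Lyz2* had 33 to 81 counts in Y641-F libraries, 325 in Control replicate 2 and 36 to 62 in the other Control libraries. *Ly6g* and *Lyz2* were picked with their values in view. Without Control replicate 2 the log2 fold changes were 0.49 for *S100a10* and 0.39 for *S100a4*, against 0.53 and 0.44 with all libraries. Both genes missed the threshold then, as they also did without Control replicate 1. No log2 ratio of *S100a8* to *S100a9* could be formed.

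Levels of different genes were compared as TPM (transcript abundance scaled to a common total), computed from counts divided by the exon length of the gene in GENCODE vM39. *S100a6* was the most abundant, at 3088 ± 159 TPM in Y641-F cells and 2848 ± 113 TPM in Control cells (SD, n = 3 each). *S100a4* followed with 1869 ± 78.6 TPM in Y641-F cells and 1505 ± 183 TPM in Control cells, then *S100a11* with 832 ± 70.7 TPM and 777 ± 23.5 TPM in the same order of groups, and *S100a10* with 395 ± 47.5 TPM and 298 ± 37.3 TPM. These 4 genes had this order in both groups, with no overlap between neighbours over the 3 libraries of a group. Their means had the same order with the length of the canonical transcript in place of all exons. The other members lay far below, with *S100a1* at 29.0 TPM in Y641-F cells and 32.8 TPM in Control cells. *S100a14* stood at 24.9 TPM in Y641-F cells and 13.1 TPM in Control cells, above *S100a13* (16.6 TPM) in Y641-F cells and below *S100a13* (17.5 TPM) in Control cells, without overlap in either group. With the canonical length, *S100a14* was above *S100a13* in both groups, at 21.9 against 9.28 TPM in Y641-F cells and 11.6 against 9.81 TPM in Control cells. *S100a16* stood at 5.93 TPM in Y641-F cells and 1.96 TPM in Control cells, below *S100a13* in both groups. With the canonical length *S100a16* had 13.5 TPM in Y641-F cells, above *S100a13*, and 4.48 TPM in Control cells, below it, and *S100a1* had 53.2 TPM in Y641-F cells and 60.3 TPM in Control cells.

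The 18 S100 genes of the table took 0.301% to 0.345% of all counts in Y641-F libraries and 0.267% to 0.302% in Control libraries. *S100a6*, *S100a10*, *S100a11* and *S100a4* made up 97.6% to 98.0% of these counts in every library. Among the Control libraries, replicate 1 was the lowest in CPM for 8 of the 9 members and replicate 3 the highest for 7. Over the 14532 genes with a mean of at least 1 CPM, replicate 1 was the lowest Control library for 38.8% and replicate 3 the highest for 36.2%. Among the Y641-F libraries, replicate 1 was the lowest for 5 of the 9 members, against 24.1% of these genes. Replicate 3 was the highest Y641-F library for 6 of the 9 members, against 33.4%.

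**Figure D3:**
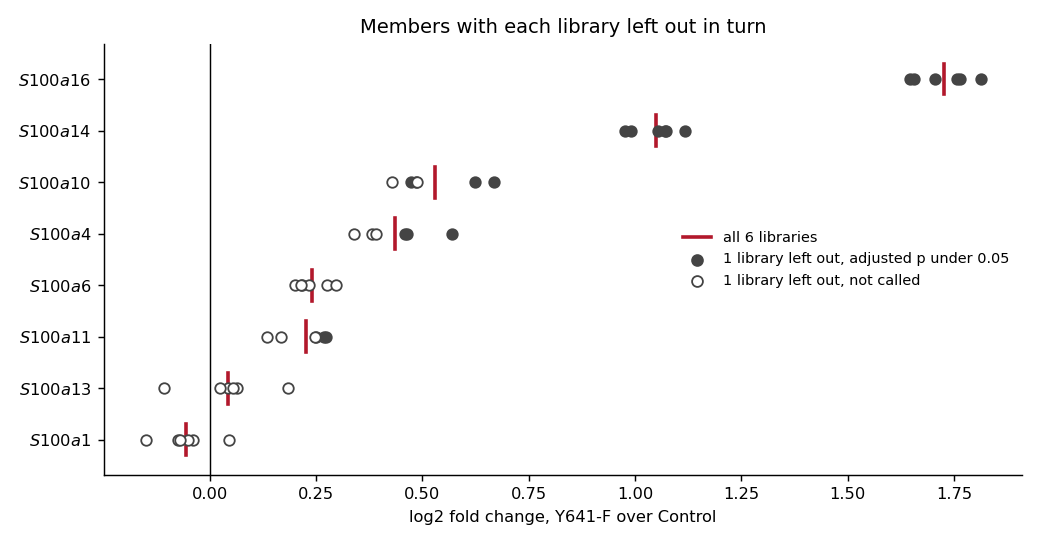
Log2 fold change of 8 members with all 6 libraries (red lines) and with each library left out in turn (circles, filled where the edgeR adjusted p is under 0.05). *S100a16* and *S100a14* keep filled circles throughout, between 1.65 and 1.81 and between 0.98 and 1.12, and *S100a10* and *S100a4* have both kinds, between 0.43 and 0.67 and between 0.34 and 0.57.

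Among the 8 other S100 genes, 4 were tested, 1 was higher and 0 were lower, so 25% of those tested were called, against 31.6% of all genes tested. *S100a7a*, the mouse relative of human psoriasin, lies between *S100a6* and *S100a8* and had 241, 268 and 309 counts in the Y641-F libraries, against 128, 161 and 164 in the Control libraries. Every Y641-F library was above the Control libraries, with a log2 fold change of 0.94 (SE 0.161, edgeR adjusted p = 0.000864). *S100a3*, a gene of the hair cuticle, had 294, 308 and 365 counts in the Y641-F libraries, against 274, 310 and 414 in the Control libraries, and the groups overlapped (log2 fold change 0.04, adjusted p = 0.896 from edgeR). *S100a2* had at most 7 counts and *S100a5* at most 11 counts in any library, with adjusted p of 0.811 and 0.363 from edgeR. *S100a7l2*, *S100b* and *S100z* were under the filter, with at most 2, 8 and 1 counts, and *S100g* had 0 counts in all libraries.

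The annexins bind membranes and many S100 proteins, and their RNA was measured here. Of 12 annexins 11 were tested, of which 1 was higher, 3 were lower and 7 did not pass the test, with a median log2 fold change of -0.17, so 36.4% were called, against 31.6% of all genes tested. *Anxa1*, the partner of S100A11, rose to 1566 ± 229.6 CPM in Y641-F cells, against 847 ± 64.0 CPM in Control cells (SD, n = 3 each; log2 fold change 0.89, adjusted p = 0.000225 from edgeR). *Anxa5*, *Anxa6* and *Anxa4* fell, with log2 fold changes of -0.56, -0.55 and -0.41. *Anxa2*, the partner of S100A10, had 28927, 27129 and 32190 counts in the Y641-F libraries, against 36307, 37959 and 36009 in the Control libraries, and a log2 fold change of -0.23 that did not pass the test (adjusted p = 0.112 from edgeR).

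Ratios of counts within a library, which do not depend on scaling, were formed for 3 pairs of binding partners. *S100a10* to *Anxa2* was 0.603, 0.843 and 0.734 in the Y641-F libraries, against 0.385, 0.402 and 0.492 in the Control libraries, a difference of 0.76 in the mean log2 ratio. *S100a11* to *Anxa1* was 0.314, 0.37 and 0.332 in the Y641-F libraries, against 0.537, 0.537 and 0.522 in the Control libraries, a difference of -0.66. *S100a6* to *Cacybp*, which encodes the calcyclin-binding protein, was 5.39, 7.08 and 5.13 in the Y641-F libraries, against 9.23, 7.79 and 8.25 in the Control libraries, a difference of -0.53. No pair overlapped between the groups, and each had p = 0.1 by a two-sided exact permutation test, 0.1 after Benjamini-Hochberg adjustment over the 3 ratios and the smallest p that 3 against 3 libraries allow, so the threshold could not be reached. The numerators and denominators did not move alike: *Cacybp* rose, with 298 ± 44.5 CPM in Y641-F cells and 173 ± 21.5 CPM in Control cells (log2 fold change 0.78, adjusted p = 0.000595 from edgeR).

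**Figure D4:**
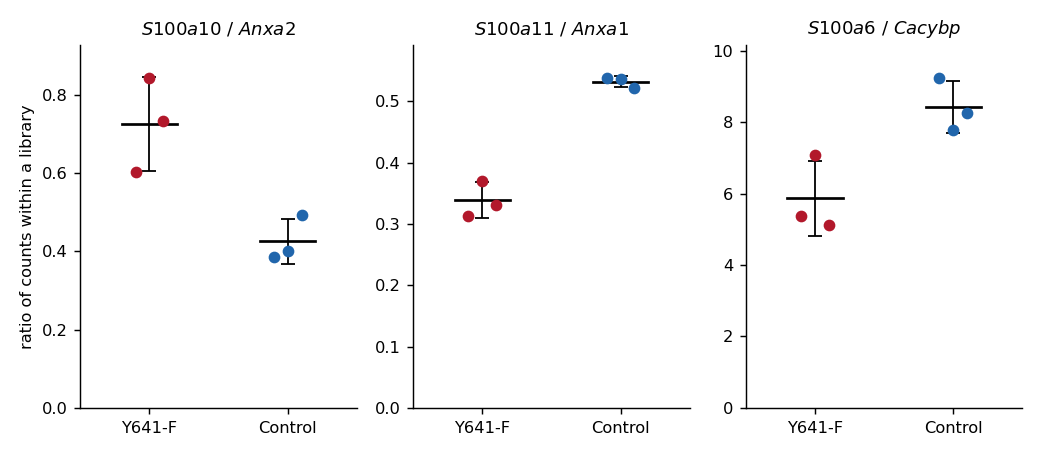
Ratio of counts of an S100 gene to the gene of a binding partner within each library, with 1 point per library and bars for the mean and SD of 3 libraries, Y641-F on the left and Control on the right. The ratio to *Anxa2* is higher in Y641-F, between 0.603 and 0.843, and the ratios to *Anxa1* and *Cacybp* are lower, with no overlap in any panel.

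Of 10 S100 receptors and their adaptors 9 were tested, of which 4 were higher, 2 were lower and 3 did not pass the test, with a median log2 fold change of 0.30. This is 66.7% called, against 31.6% of all genes tested. *Sdc1* (syndecan 1) rose by a log2 fold change of 0.91, *Cd14*, a coreceptor of TLR4, by 0.61, and *Myd88*, the adaptor of TLR4, by 0.47. *Bsg* (CD147), a receptor of S100A9 described in human cells, fell to 593 ± 26.4 CPM in Y641-F cells, against 859 ± 35.3 CPM in Control cells (log2 fold change -0.53, adjusted p = 0.00114 from edgeR). *Ager*, which encodes RAGE, had 14, 23 and 8 counts in the Y641-F libraries, against 25, 24 and 12 in the Control libraries, and *Tlr4* had 21.0 CPM in Y641-F cells and 26.4 CPM in Control cells (log2 fold change -0.33, adjusted p = 0.0468 from edgeR). *Ager* and *Tlr4* are outside the naming rule and were picked with their values in view.

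Of 22 intracellular partners of S100 proteins, all tested, 7 were higher, 4 were lower and 11 did not pass the test, with a median log2 fold change of -0.001. This is 50% called, against 31.6% of all genes tested. *Il1a*, the cytokine whose release involves S100A13, had 4961, 5095 and 5678 counts in the Y641-F libraries, against 2031, 2019 and 1893 in the Control libraries, a log2 fold change of 1.5 (adjusted p = 3.02e-07 from edgeR). *Ryr1*, a ryanodine receptor, rose by 1.26 and *Trp53*, which S100A4 binds, by 0.78 on the log2 scale. *Myh9*, the myosin that S100A4 binds, had a log2 fold change of -0.25 and did not pass the test (adjusted p = 0.144 from edgeR), and *Myh9* too was picked with its value in view.

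**Figure D5:**
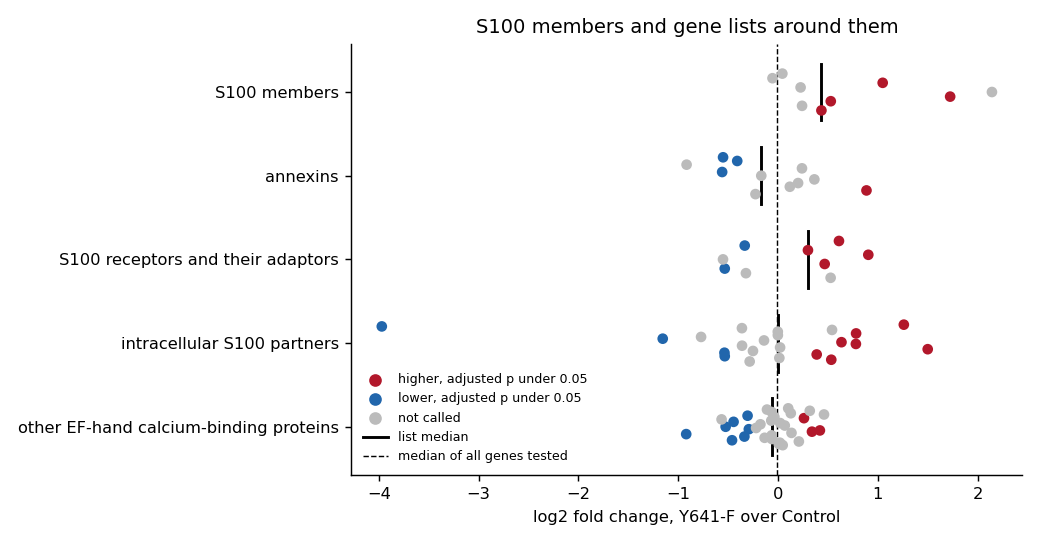
Log2 fold change of Y641-F over Control for the 9 tested S100 members and for 4 lists of genes around them, with red points higher and blue points lower at an adjusted p under 0.05 from edgeR, solid lines for list medians and a dashed line for the median of all genes tested. The S100 row holds called points only to the right of 0, and the other rows hold both colours. The point farthest to the left is *Kcnk3* (-3.97), with a mean of 6.83 counts per library, a gene picked here for its place in the plot.

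Of 154 annotated genes between the outermost S100 genes on chromosome 3 or within 250 kb beyond them, 71 were matched by symbol to the count table and 15 were tested, of which 2 were higher, 2 were lower and 11 did not pass the test, with a median log2 fold change of -0.04. Of those tested, 26.7% were called, against 31.6% of all genes tested. *Ilf2*, on the *S100a13* side, rose by 0.38 on the log2 scale (adjusted p = 0.013 from edgeR), and *Dennd4b* and *Gatad2b*, farther out on that side, fell, with -0.57 and -0.35. *Chtop*, the tested gene nearest to *S100a13*, shares 144 exon bases with *S100a13* on the other strand and had a log2 fold change of 0.25 (adjusted p = 0.0646 from edgeR). The fourth called gene, *Tdpoz8*, had a mean of 5 counts per library. *Chtop* and *Tdpoz8* fall outside the naming rule and were picked with their values in view.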

How the data were processed

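Per the labels, the authors extracted RNA with TRIzol, made libraries with a NEBNext Ultra II kit and sequenced them on an Illumina NovaSeq. The submitters' processing notes name GRCm39, featureCounts 2.0.1, STAR 2, fastp 0.20.1, FastQC 0.11.9, MultiQC 1.9 and bcl2fastq 2.19.0.316. The deposited values are whole read counts per gene, not normalised. Neither annotation nor strand mode of the counting is stated.

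Genes under 0.1 CPM in more than 3 of the 6 libraries were removed (19162), and the rest were compared by edgeR 4.0.16 (TMM, quasi-likelihood test, Benjamini-Hochberg over 21043 genes) in R 4.3.3, with limma 3.58.1 and DESeq2 1.42.0 for alternatives. The code was tested on simulated data. TPM used exon lengths of the 31778 genes matched by symbol to GENCODE vM39. Python 3.11.15 with scipy 1.17.1 and matplotlib 3.10.9 served for ratios and plots. Promoter sequences are from RefSeq. Intervals are 95% and, like the limit of 3 counts, cover no other error than the spread or the counting they name.

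The members and lists were chosen with earlier results of these data known. Named genes are the S100 genes, the partners *Anxa1*, *Anxa2* and *Cacybp*, *Ezh2*, up to 4 called genes per list with the largest changes and a mean count of at least 100, and the most abundant marker of each other cell type. *Epcam*, *Flg* and the genes named in the text as picked are outside this rule. A gene that this rule names is not reported here. Alternatives were other scaling factors, filters and tests, a replicate block and leaving out 1 library at a time.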

Additional observations from a re-analysis of the deposited data

How the results depend on the processing

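Over 7 other settings (DESeq2 size factors, upper-quartile factors, no filter, a 1 CPM filter, DESeq2, limma-voom and the replicate block), 4 to 5 S100 members were higher and 0 were lower, and 4 were higher with the replicate block. The deviations of same-numbered libraries had correlations of -0.14 (replicate 1), -0.169 (replicate 2) and 0.243 (replicate 3) over 14532 genes. These differ in sign, and Y641-F replicate 2 with Control replicate 1 had a higher correlation than any same-numbered pair. With 3 libraries per group, these values cannot decide whether a shared number marks a shared batch. With 1 library left out, 2 to 5 members were higher and 0 lower, the lowest number without Control replicate 1 and without Control replicate 2. The log2 fold change of *S100a1* then ranged between -0.15 and 0.046, positive without Control replicate 3, and that of *S100a13* between -0.11 (without Control replicate 1) and 0.18. That of *S100a3* ranged between -0.11 and 0.27 and was negative without Y641-F replicate 3 (-0.02), Control replicate 1 (-0.11) and Control replicate 2 (-0.03). None of these had passed the test, and the cause was not tested. The differences in log2 ratio kept their direction with each library left out, at 0.65 to 0.89 for *S100a10* to *Anxa2*, -0.72 to -0.60 for *S100a11* to *Anxa1* and -0.68 to -0.44 for *S100a6* to *Cacybp*. The canonical transcript length was chosen after seeing the data. Under the 1 CPM filter *S100a8*, *S100a2* and *S100a5* gave no value, and depth limits what can be said of these and of *S100a9*.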

Other observations

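Of 35 other EF-hand calcium-binding proteins 31 were tested, of which 3 were higher, 7 were lower and 21 did not pass the test, with a median log2 fold change of -0.06, so 32.3% were called, against 31.6% of all genes tested. *Hpcal1*, a neuronal calcium sensor of the visinin-like group, fell to 24.4 ± 2.24 CPM in Y641-F cells, against 46.1 ± 3.22 CPM in Control cells (SD, n = 3 each; log2 fold change -0.92, adjusted p = 3.29e-05 from edgeR). *Capn1*, the large subunit of calpain 1, and *Sparc*, a matrix protein, fell, with log2 fold changes of -0.52 and -0.46.

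Genes of the epidermal cluster that lies between the 2 S100 groups were near the detection limit or did not pass the test. Of 9 such genes with counts deposited, 3 were tested, and edgeR, DESeq2 and limma-voom called 0 of them, as did an unadjusted p under 0.05. Over all genes tested, edgeR called 31.6%, so 0 of 3 says little about this cluster. *Flg* (filaggrin) had 6.63 CPM in Y641-F cells and 5.01 CPM in Control cells (adjusted p = 0.217 from edgeR). Lymphoid markers gave 0 called of 3 tested by edgeR, also unadjusted and by DESeq2, which says as little against 31.6%. *Cd3e* had 0.237 CPM in Y641-F cells and 0.451 CPM in Control cells. Of 7 fibroblast and endothelial markers tested 0 were higher and 1 was lower by edgeR (0 and 3 at an unadjusted p under 0.05, 0 and 2 by DESeq2). By edgeR 14.3% were called, against 31.6% of all genes tested. The called gene, *Col1a1*, had 10, 22 and 12 counts in the Y641-F libraries, against 64, 87 and 50 in the Control libraries (log2 fold change -2.08). *Col1a1* was picked with its value in view. *Pdgfra*, the most abundant, had 28.6 CPM in Y641-F cells and 38.4 CPM in Control cells.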
